A study of Mus musculus with 20 samples.

Results

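The 9 genes described here, Ucp1, Cidea, Ppargc1a, Prdm16, Dio2, Cox7a1, Cox8b, Elovl3 and Otop1, are brown and beige thermogenic genes, taken as a named list from 36611 genes measured by RNA sequencing of inguinal white adipose tissue (iWAT). Mice homozygous for a Tmem120a allele with floxed exons either carried Cre under the Adiponectin promoter, which is active in mature adipocytes, and lost Tmem120a there (Ad-Tmem120a-/-, called knockout), or were littermates without Cre (control). All were female mice of 6 months, labelled C57BL/6 (floxed line on C57BL/6 N Tac, Cre line on C57BL/6 J), fed for 15 weeks a low fat diet with 10.5% fat (LFD) or a high fat diet with 58% fat (HFD), which gave 4 groups of 5 libraries: control LFD, knockout LFD, control HFD and knockout HFD. The floxed allele was shared by all 4 groups, and cells of the depot other than adipocytes kept Tmem120a. Levels were summed per gene and are given as TPM, a measure of transcript abundance that accounts for transcript length and library size, with replicate numbers as the labels give them (1 to 5, 6 to 10, 11 to 15 and 17 to 21).

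Brown and beige adipocytes burn fuel for heat: the uncoupling protein UCP1 lets protons cross the inner mitochondrial membrane without making ATP. Noradrenaline acting on beta-adrenergic receptors turns the programme on through cyclic AMP and the coactivator PGC-1alpha (Ppargc1a). PRDM16 is a transcriptional regulator of brown fat identity. The inguinal depot of the mouse is a white depot known for how readily beige cells appear in it in the cold.

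Libraries held between 54605101 and 92387737 estimated counts, and replicate libraries correlated across genes at r between 0.874 and 0.967 on log2(TPM + 1). Tmem120a, the deleted gene, lay between 57.9 and 131.9 TPM in control LFD, between 21.5 and 74.0 in knockout LFD, between 83.3 and 195.7 in control HFD and between 29.5 and 89.7 in knockout HFD, so that the groups overlapped on each diet. Its log2 fold change in knockouts was -1.61 (SE 0.343, adjusted p = 0.929) on LFD and -1.67 (SE 0.291, adjusted p = 0.173) on HFD in edgeR. The white adipocyte markers fitted the labelled tissue: Fabp4 was never below 10986 TPM and Adiponectin (Adipoq) never below 638 TPM. Summed TPM of 25 skeletal muscle fibre genes reached 4761 in control LFD replicate 5 and ranged from 77.9 to 1524 in knockout LFD, from 56.4 to 140.3 in control HFD and from 132.3 to 2079 in knockout HFD. Of the 12 sebaceous gland and skin genes, the summed TPM was 145.0 in knockout LFD replicate 7 and 72.2 in knockout HFD replicate 18, against 3.28 to 10.6 in the other libraries, and most of it came from the hair follicle keratins Krt71 and Krt25 (139.4 and 59.1 TPM together). The 5 sebaceous gland genes summed to 1.29 TPM in replicate 7 and 3.72 in replicate 18, against 0.409 to 1.89 in the others. In tissue RNA, fewer beige cells and less RNA per beige cell cannot be told apart.

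The members formed a wide range of levels. On the TPM scale, and over all 20 libraries, the order of the means was Cox8b (132.0 TPM), Cox7a1 (54.1), Ucp1 (39.7), Cidea (34.8), Otop1 (9.02), Ppargc1a (4.25), Elovl3 (1.90), Prdm16 (1.46) and Dio2 (1.06). Cox8b stood above Cox7a1 in 20 of 20 libraries (permutation test of the differences within libraries, two-sided, p = 1e-05, the smallest that 100000 resamples give). Ucp1 and Cidea did not differ beyond their spread, with Ucp1 the higher in 7 of 20 libraries (permutation p = 0.126), and neither did Elovl3 and Prdm16, with Elovl3 the higher in 8 of 20 (permutation p = 0.803). Prdm16 was above Dio2 in 12 of 20 libraries (permutation p = 0.0480), and the other neighbours in this order differed with p of at most 0.00101. The order came from the same libraries, and these tests of neighbours were not corrected for their number. All 9 members passed the filter of a mean of 0.5 TPM over the libraries of every comparison. The control HFD mean of Elovl3 (0.366 TPM) lay below it, so that Elovl3 passed beside control HFD only through the libraries of other groups.

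**Figure D1:**
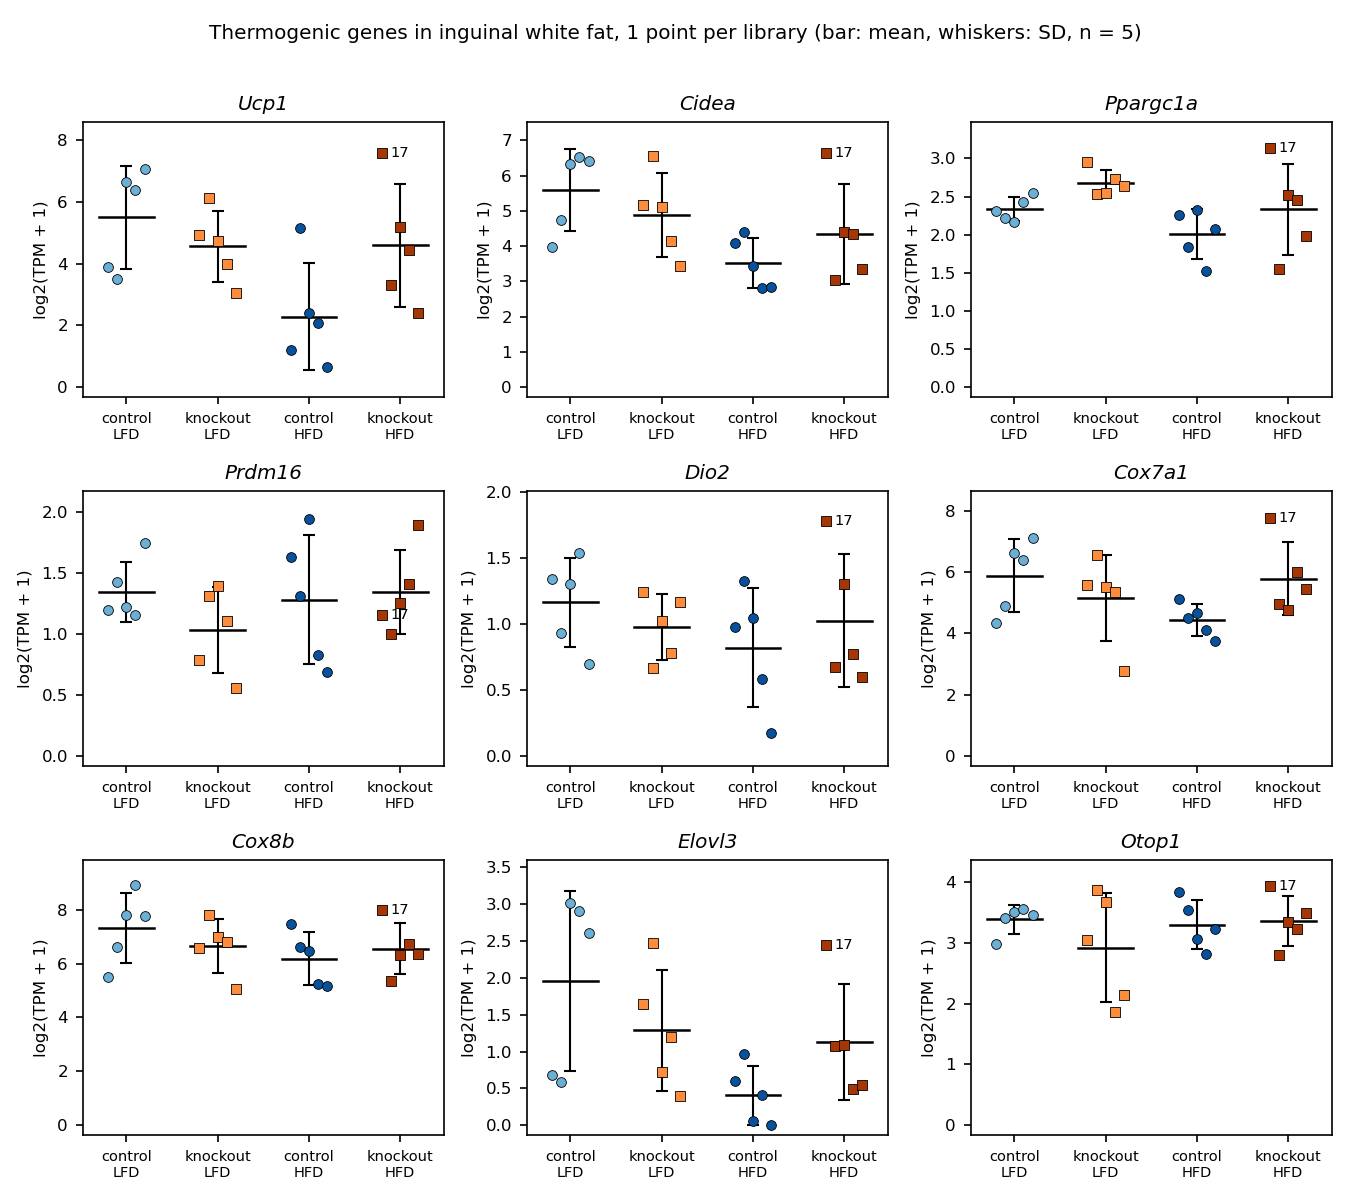
Level of each of the 9 genes as log2(TPM + 1) (vertical axis) in every library of the 4 groups (horizontal axis), with bars for the mean and whiskers for the SD of 5 libraries. Knockout HFD replicate 17, marked 17, was the highest library of its group in 8 of the 9 genes, all but Prdm16, and groups overlapped in every panel.

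The members differed in their spread between replicates. Within a group, the SD of Ucp1 was 79.7% to 165% of its mean, that of Elovl3 80.6% to 111% and that of Cidea 53.1% to 124%, while that of Ppargc1a was 13.5% to 50.9% and that of Otop1 16.3% to 63.2%. Ucp1 ranged from 0.570 to 193.6 TPM over the 20 libraries, a 340-fold range. Ppargc1a ranged from 1.88 to 7.82 TPM, a 4.16-fold range, and Otop1 from 2.65 to 14.3 TPM, a 5.41-fold range.

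Promoter sequence is shown for 3 members, Ucp1 and the cytochrome c oxidase subunits Cox7a1 and Cox8b. Of the members whose levels moved together across libraries, as described further on, these were the ones with promoter sequence at hand. Each line gives the 250 bases before the RefSeq start site in GRCm38.p6, 5′ to 3′ on the gene's own strand. Capitals mark the letters that matched a searched motif.
Ucp1, chr8:83290098-83290347, plus strand: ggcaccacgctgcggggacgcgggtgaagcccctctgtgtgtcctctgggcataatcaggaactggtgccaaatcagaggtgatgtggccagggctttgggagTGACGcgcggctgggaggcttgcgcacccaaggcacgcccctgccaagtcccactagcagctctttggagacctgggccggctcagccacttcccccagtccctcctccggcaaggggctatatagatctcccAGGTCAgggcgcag
Cox7a1, chr7:30183921-30184170, plus strand: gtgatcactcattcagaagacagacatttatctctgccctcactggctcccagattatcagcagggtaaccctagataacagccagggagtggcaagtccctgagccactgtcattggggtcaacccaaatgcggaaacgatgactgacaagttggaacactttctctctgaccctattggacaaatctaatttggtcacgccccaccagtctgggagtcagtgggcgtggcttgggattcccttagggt
Cox8b, chr7:140900447-140900696, minus strand: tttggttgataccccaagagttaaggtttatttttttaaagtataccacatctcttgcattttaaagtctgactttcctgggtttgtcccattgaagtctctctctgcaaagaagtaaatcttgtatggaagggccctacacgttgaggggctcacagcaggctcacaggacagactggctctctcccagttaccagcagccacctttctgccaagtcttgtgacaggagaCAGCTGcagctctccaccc
The motifs, searched on both strands, were the nuclear receptor half-site AGGTCA, the oestrogen-related receptor element TCAAGGTCA that contains it, the cyclic AMP response element TGACGTCA, its half-site TGACG, the myogenic E-box CAGCTG and the TATA box TATAAA. Ucp1 held AGGTCA from base 14 to base 9 before the start and TGACG from base 147 to base 143, Cox8b held CAGCTG from base 19 to base 14, and Cox7a1 held none of the 6. Of 32851 promoter windows of the same length, AGGTCA was in 14%, TGACG in 17.8%, CAGCTG in 13%, TATAAA in 12.4%, TGACGTCA in 1.55% and TCAAGGTCA in 0.387%. Among the other members found in the table (7 of 9 in all), Dio2 held TGACGTCA from base 95 to base 88, which contains TGACG on both strands, and TATAAA from base 30 to base 25, Ppargc1a held TGACG on the opposite strand from base 49 to base 45, and Prdm16 and Otop1 held none. Cidea and Elovl3 are not printed here.

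The comparison of diets in control mice asked how HFD changed the thermogenic genes where Tmem120a was intact, and it gave the only members that passed the test. Cidea, Ppargc1a, Cox7a1 and Elovl3 were lower on HFD, 4 of the 9 members at an adjusted p under 0.1 (edgeR, Benjamini-Hochberg over all genes tested). In that comparison 9.32% of all genes were called in either direction and 4.9% were called lower on HFD. All 9 members had fold changes below 0, with a median log2 fold change of -1.58 against -0.04 over all genes tested. Between 3 and 6 members were called when a single library was left out: 3 without any 1 of 7 libraries (control LFD replicates 3, 4 and 5 and control HFD replicates 11, 13, 14 and 15), 5 without control HFD replicate 12 and 6 without control LFD replicate 1. The groups overlapped in all 9 members, while 9.78% of all genes had groups that did not overlap. The split of all calls depended on the scale: 676 genes were higher and 751 lower in edgeR, and 1791 and 348 in limma on log2(TPM + 1), where the median of all genes stood at 0.13.

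Ucp1, the proton carrier itself, lies on chromosome 8 (85814247 to 85822355, plus strand, mm9). In control LFD its level was 13.7, 10.4, 100.4, 82.5 and 133 TPM, and in control HFD it was 1.28, 34.4, 4.26, 3.20 and 0.570 TPM. The controls fed LFD fell into 3 high and 2 low libraries, and a single HFD library, replicate 12, reached into that range. The change did not pass the test across all genes (log2 fold change -3.14, SE 1.10, adjusted p = 0.126), although 4 of the 5 HFD controls were below every LFD control (exact permutation p = 0.0317, two-sided, on the log2(TPM + 1) scale). Without control HFD replicate 12 the log2 fold change was -5.06 and passed the test (adjusted p = 0.0238), and without control LFD replicate 1 it was -3.38 (adjusted p = 0.0942). DESeq2 called it at an adjusted p of 0.0439 and limma at 0.0587.

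Cidea encodes a lipid droplet protein that is abundant in brown fat and marks beige conversion, and lies on chromosome 18 (67503218 to 67527448, plus strand, mm9). It was at 14.6, 25.96, 79.4, 91.8 and 83.9 TPM in control LFD and at 15.9, 20.1, 9.90, 6.06 and 6.22 TPM in control HFD. The HFD controls stayed at or below 20.1 TPM, and 3 of them were below every LFD control. Cidea fell on HFD (log2 fold change -2.58, SE 0.538, adjusted p = 0.0216), and the call held without any single library (adjusted p from 0.00758 to 0.0601).

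Elovl3 encodes a fatty acid elongase that brown fat induces in the cold and that sebaceous glands also express. It lies on chromosome 19 (46206387 to 46210184, plus strand, mm9). Control LFD libraries held 0.610, 0.495, 7.07, 6.48 and 5.08 TPM, and control HFD libraries 0.511, 0.956, 0.0368, 0.326 and 0 TPM, the last with no count, which allows up to 0.0269 TPM at 3 counts and covers counting error only. The LFD controls again split into 3 high and 2 low libraries, the same 3 as for Ucp1. Elovl3 fell on HFD (log2 fold change -3.72, SE 1.12, adjusted p = 0.0814), having passed the filter through control LFD alone (means 3.95 and 0.366 TPM), but the call was lost when any 1 of 7 libraries was left out, control LFD replicates 3, 4 and 5 and control HFD replicates 11, 13, 14 and 15 (adjusted p up to 0.165).

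Cox7a1 and Cox8b encode the subunit forms of cytochrome c oxidase found in brown fat, heart and skeletal muscle, and both lie on chromosome 7 (30969190 to 30971047, plus strand, and 148084842 to 148086345, minus strand, mm9). Cox7a1 was at 19.4, 28.4, 97.6, 83.7 and 137 TPM in control LFD and at 34.1, 21.6, 24.4, 16.4 and 12.4 TPM in control HFD. It fell on HFD (log2 fold change -1.94, SE 0.477, adjusted p = 0.0409), although the 2 lowest LFD controls lay inside the HFD range, and limma did not call it (-1.44, adjusted p = 0.105). Cox8b was at 44.8, 96.0, 224, 485 and 217 TPM and at 175, 96.4, 86.5, 36.7 and 34.7 TPM in the same groups. Its fold change did not pass the test (log2 fold change -1.58, SE 0.639, adjusted p = 0.184) until control LFD replicate 1 was left out (log2 fold change -1.83, adjusted p = 0.0781).

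Ppargc1a encodes PGC-1alpha, the coactivator that drives mitochondrial biogenesis, and lies on chromosome 5 (51845488 to 51958964, minus strand, mm9). Its level was 3.97, 3.67, 3.51, 4.39 and 4.86 TPM in control LFD and 3.80, 2.57, 4.02, 1.88 and 3.22 TPM in control HFD. The spread was far narrower than that of Ucp1, and Ppargc1a was lower on HFD by a smaller amount (log2 fold change -0.76, SE 0.147, adjusted p = 0.0151). The call was not reached with offsets for transcript length (-0.59, adjusted p = 0.115) or in limma on log2(TPM + 1) (-0.33, adjusted p = 0.261). Summed white adipocyte genes averaged 30871 TPM on LFD and 39442 TPM on HFD in controls, and relative to them the log2(TPM + 1) difference was -0.60 in controls (exact permutation p = 0.00794, n = 5) and -0.78 in knockouts (exact permutation p = 0.0317).

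Prdm16, Dio2 and Otop1 did not pass the test between diets in controls. Prdm16, the regulator of brown fat identity (chromosome 4, 153690234 to 154010982, minus strand), lay between 1.23 and 2.36 TPM on LFD and between 0.609 and 2.85 on HFD (log2 fold change -0.07, SE 0.182, adjusted p = 0.888). Dio2, the deiodinase that makes active thyroid hormone inside the cell (chromosome 12, 91962994 to 91976878, minus strand), lay between 0.624 and 1.91 TPM and between 0.1303 and 1.51 TPM (log2 fold change -0.89, SE 0.520, adjusted p = 0.368). Otop1 encodes a proton channel that brown fat expresses (chromosome 5, 38667211 to 38695448, plus strand), and it lay between 6.88 and 10.8 TPM and between 6.02 and 13.3 TPM (log2 fold change -0.27, SE 0.206, adjusted p = 0.507).

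In knockout mice the same comparison of diets called none of the 9 members, while 9.4% of all genes tested were called. None of the 9 had an unadjusted p under 0.05 in edgeR, beside 3115 of all 15705 genes tested. DESeq2 and limma called none of the 9 either, beside 2247 and 1534 of all genes. The median log2 fold change was 0.04 over the members and 0.00 over all genes, with 5 members above 0 and 4 below. No member had groups that did not overlap, against 7.95% of all genes. Ucp1 was at 29.8, 69.3, 25.4, 14.8 and 7.23 TPM in knockout LFD and at 194, 8.93, 35.6, 20.9 and 4.28 TPM in knockout HFD. Replicate 17 alone stood above the LFD range, and replicate 21 alone below it (log2 fold change 0.89, SE 0.883, adjusted p = 0.648). Without replicate 17 the Ucp1 value turned to -0.70 (adjusted p = 0.643), Cox7a1 from 0.74 to -0.14, Dio2 from 0.11 to -0.36 and Cidea moved from -0.26 to -1.44 (adjusted p = 0.187).

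**Figure D2:**
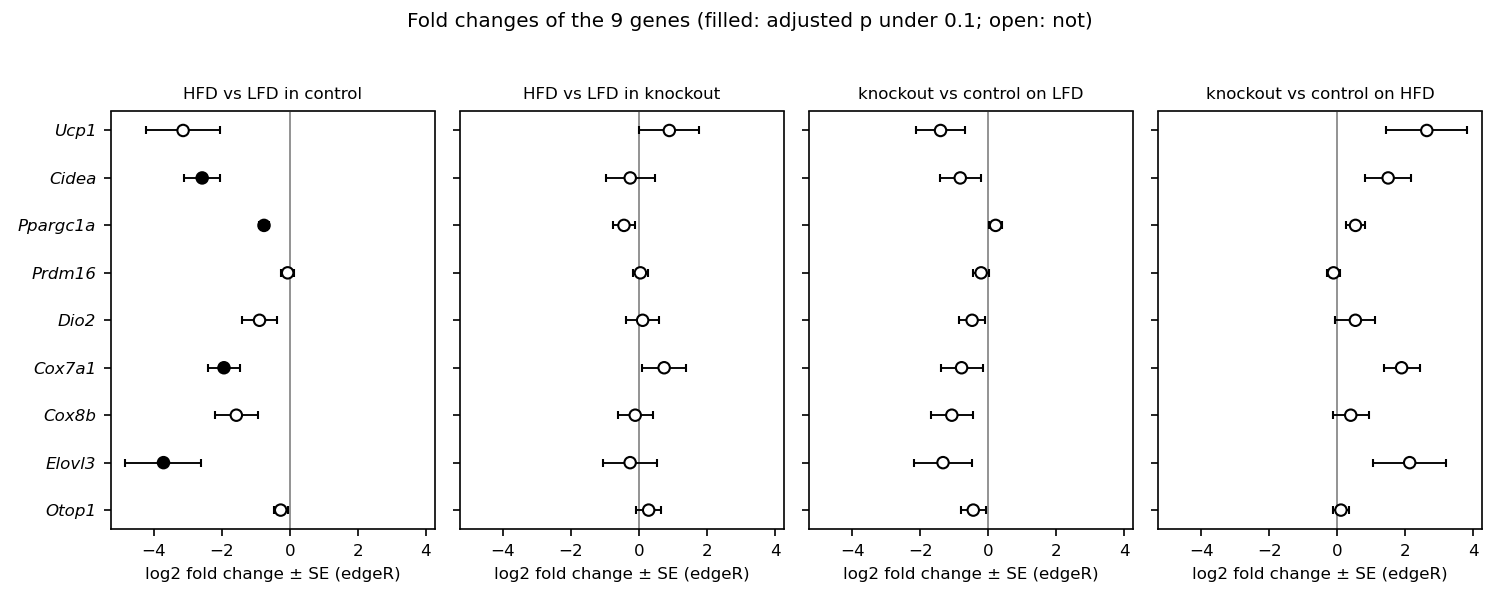
Fold changes of the 9 genes on a log2 scale with their standard errors (edgeR, horizontal axes) in 4 comparisons, filled where the adjusted p was under 0.1. Filled points appear in the control diet comparison alone, for Cidea, Ppargc1a, Cox7a1 and Elovl3. The panels share groups of libraries.

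Knockout against control on HFD asked what loss of Tmem120a in adipocytes did to these genes on the rich diet. No member passed the test in edgeR, and 0.00657% of all genes did, 1 gene, Gm11868, named after its values were seen. Of the 9, 3 had an unadjusted p under 0.05 in edgeR (Ucp1, Cidea and Cox7a1), beside 709 of all 15228 genes tested. DESeq2 called 1 of the 9, Cox7a1, beside 100 of all genes, and limma called none of the 9, beside 3 of all genes. Fold changes were above 0 in 8 members, all but Prdm16, which turned above 0 with length offsets (0.03) and in limma (0.06). The median log2 fold change was 0.54 against 0.01 over all genes. No member had groups that did not overlap, against 0.69% of all genes.

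Single libraries carried much of this difference. Knockout HFD replicate 17 held 193.6 TPM of Ucp1 against 4.28 to 35.6 in the other 4 knockouts, and 4 of the 5 controls lay between 0.570 and 4.26 TPM with replicate 12 at 34.4. The fold change of Ucp1 was 6.20-fold (log2 fold change 2.63, SE 1.19, adjusted p = 0.999) with all libraries. It was 1.04 on the log2 scale without knockout HFD replicate 17 and 4.53 without control HFD replicate 12, and neither passed the test (adjusted p from 0.436 to 0.9999 over the libraries left out in turn). All 5 knockouts were above 4 of the 5 controls, the lowest knockout, at 4.28 TPM, beside the second highest control at 4.26 TPM (two-sided exact permutation p = 0.0794, n = 5). Replicates 17 and 12 also had the highest muscle sums of their groups, 2079 and 140.3 TPM, and the part of muscle RNA was not tested.

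Cidea followed Ucp1. Knockout HFD libraries held 99.0, 7.17, 20.05, 19.3 and 9.17 TPM, and the other 4 knockouts overlapped the controls, which lay between 6.06 and 20.1 TPM (log2 fold change 1.497, SE 0.670, adjusted p = 0.999). Without replicate 17 the log2 fold change was 0.31. Elovl3 was at 4.46, 1.11, 1.13, 0.405 and 0.460 TPM in knockout HFD, with 3 of 5 knockouts above every control, which lay between 0 and 0.956 TPM (log2 fold change 2.13, SE 1.079, adjusted p = 0.999, and 1.12 without replicate 17).

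Cox7a1 showed the smallest p of the members on HFD. Knockout HFD libraries held 214, 30.4, 26.3, 63.5 and 42.3 TPM and control HFD libraries 34.1, 21.6, 24.4, 16.4 and 12.4 TPM. All 5 knockouts were above 4 of the 5 controls, and 3 were above every control. The difference was 3.71-fold (log2 fold change 1.89, SE 0.531, adjusted p = 0.627), ranked 90 by p among 15228 genes, and the two-sided exact permutation p of the single gene was 0.0317, where the smallest this design allows is 0.00794. Without replicate 17 the log2 fold change was 1.01 (SE 0.307, adjusted p = 0.917). DESeq2 gave 1.88 with an adjusted p of 0.0217.

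For Cox8b, of the same enzyme, knockout HFD libraries held 251, 39.9, 79.6, 106 and 80.7 TPM against 175, 96.4, 86.5, 36.7 and 34.7 TPM in controls (log2 fold change 0.40, SE 0.529, adjusted p = 0.999), and the value turned to -0.21 without replicate 17. Ppargc1a was at 7.82, 1.93, 4.76, 4.48 and 2.96 TPM in knockout HFD, with 3 libraries above every control (log2 fold change 0.54, SE 0.293, adjusted p = 0.999). Dio2 lay between 0.515 and 2.43 TPM in knockouts (log2 fold change 0.53, SE 0.586, adjusted p = 0.999), Otop1 between 5.94 and 14.3 TPM (log2 fold change 0.11, SE 0.239, adjusted p = 0.999, and -0.09 without replicate 17) and Prdm16 between 0.9997 and 2.73 TPM (log2 fold change -0.11, SE 0.186, adjusted p = 0.999). The highest Dio2 and Otop1 levels of that group were again in replicate 17, whereas its Prdm16 of 1.24 TPM was second lowest.

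On LFD, knockout against control called no member, and 0.00636% of all genes, again Gm11868 alone. None of the 9 reached an unadjusted p under 0.05 in edgeR, beside 803 of all 15717 genes tested. DESeq2 and limma called none of the 9, beside 17 and 2 of all genes. Fold changes were below 0 in 8 members, with a median of -0.78 against -0.02 over all genes, and no member had groups that did not overlap, against 1.4% of all genes. Ucp1 was at 13.7, 10.4, 100.4, 82.5 and 133 TPM in controls and 29.8, 69.3, 25.4, 14.8 and 7.23 TPM in knockouts (log2 fold change -1.40, SE 0.730, adjusted p = 0.929). Cox8b was at 44.8, 96.0, 224, 485 and 217 TPM and 95.4, 223, 126, 110.2 and 32.6 TPM (log2 fold change -1.07, SE 0.625, adjusted p = 0.929). The 2 low LFD controls lay inside the range of the knockouts in both genes. Elovl3 was at 2.12, 4.57, 0.647, 1.30 and 0.312 TPM in knockouts (log2 fold change -1.33, SE 0.858, adjusted p = 0.929), highest in replicate 7.

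Ppargc1a was the exception on LFD, with a fold change above 0. Knockout LFD libraries held 6.73, 4.78, 4.86, 5.63 and 5.22 TPM, and 3 of 5 were above every control. The single-gene comparison on log2(TPM + 1) gave a two-sided exact permutation p of 0.0238, while edgeR on TMM-scaled counts gave a difference that did not pass the test (log2 fold change 0.22, SE 0.184, adjusted p = 0.933). Otop1 split the knockout LFD libraries widely, at 7.25, 13.7, 11.7, 2.65 and 3.43 TPM.

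The test of whether the genotype effect differed between diets called no member, and 0.0% of all genes (0 of 15574 in edgeR and limma with 560 genes at an unadjusted p under 0.05 in edgeR, and 14 in DESeq2). All 9 values were above 0, with a median of 1.44 against 0.01 over all genes. Of the members, 4 had an unadjusted p under 0.05: Ucp1 (log2 fold change 4.01, SE 1.52, adjusted p = 0.9999), Cidea (log2 fold change 2.29, SE 0.981, adjusted p = 0.9999), Elovl3 (log2 fold change 3.43, SE 1.44, adjusted p = 0.9999) and Cox7a1 (log2 fold change 2.65, SE 0.879, adjusted p = 0.9999). DESeq2 and limma called none of the 9. When genotypes were exchanged within each diet, the two-sided exact permutation p on log2(TPM + 1) was 0.0436 for Ucp1, 0.138 for Cidea, 0.0504 for Cox7a1 and 0.0771 for Elovl3. The null of that exchange is no genotype effect on either diet, so it is not an exact test of equal effects on both diets. Without knockout HFD replicate 17 the edgeR value of Ucp1 was 2.41 and that of Cidea 1.11. Ppargc1a was the member whose sign depended on the scale, at 0.30 in edgeR and -0.02 in limma.

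Muscle fibre transcripts were compared with the members library by library, since iWAT libraries differed in them by a wide margin. Summed TPM of the 25 fibre genes, led by troponin T (Tnnt3) and myosin light chain (Myl1), was 131, 79.7, 387, 235 and 4761 in control LFD, 1027, 683, 132, 1524 and 77.9 in knockout LFD, 87.2, 140.3, 75.4, 56.4 and 82.8 in control HFD and 2079, 506, 1424, 1155 and 132 in knockout HFD. The median sums of the 4 groups were 235.4, 683.0, 82.8 and 1155 TPM in that order. None of the 24 fibre genes tested was called between genotypes on HFD in edgeR, although 24 had an unadjusted p under 0.05. All 24 were higher in knockouts on HFD, with a median log2 fold change of 4.51. Without knockout HFD replicate 17 the median was 4.21, with all 23 genes tested above 0. For 10 of the 24 the control mean lay below the filter, so that they passed through knockouts alone and their direction was set by the filter. On LFD none was called either, and 0 had an unadjusted p under 0.05 in edgeR. The median log2 fold change on LFD, -0.86, turned to 1.94 without control LFD replicate 5. Between diets in controls 16 of 24 were called lower on HFD, beside 4.9% of all genes, and 1 of 20 tested was called without that library, which held 4761 TPM against 79.7 to 387 in the other 4 LFD controls. Fibre genes with a control HFD mean below the filter, 10 of those tested on HFD, could enter this comparison only through control LFD. Their direction was thus set by the filter, and the count of 16 is a description. None of the 25 was at 0 in every library.

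Ucp1 had the closest relation to the muscle sum (Pearson r = 0.707, permutation p = 0.000540, adjusted p = 0.00261 over 9 members; Spearman rho = 0.764, p = 0.000110, adjusted p = 0.000990; n = 20). Cox7a1 followed (r = 0.693, permutation p = 0.000580, rho = 0.722), then Elovl3 (r = 0.617, permutation p = 0.00421, rho = 0.735), Cidea (r = 0.568, permutation p = 0.00985, rho = 0.615) and Ppargc1a (r = 0.541, permutation p = 0.0130, rho = 0.549). These 5 passed an adjusted p of 0.05 on r, the highest of them at 0.0234, and on rho, the highest at 0.0232. Cox8b did not on r (0.442, adjusted permutation p = 0.0775) but did on rho (0.532, adjusted permutation p = 0.0254), and Dio2 (r = 0.167), Otop1 (r = 0.061) and Prdm16 (r = 0.061) had no detectable relation. Muscle itself is known to express Cox7a1, Cox8b, Ppargc1a and Dio2 and is not known for Ucp1 or Cidea.

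With both measures centred on their group means the same number of members, 5, passed, with r of 0.647 for Ucp1, 0.633 for Cox7a1, 0.623 for Elovl3, 0.572 for Cidea and 0.462 for Ppargc1a (permutation within groups, adjusted p from 0.0152 to 0.0455). The relation rested in part on 2 libraries. Without control LFD replicate 5 and knockout HFD replicate 17, which lay farthest from the median muscle sum, r was 0.582 for Ucp1, 0.543 for Cox7a1, 0.477 for Elovl3, 0.449 for Ppargc1a and 0.394 for Cidea, and no member passed (adjusted permutation p from 0.0929). Without replicate 17 alone 3 members passed, and without replicate 5 alone 4. Against the slow and cardiac fibre genes, whose sums lay between 3.77 and 32.6 TPM, no member passed, and r for Ucp1 was 0.347. The part of muscle RNA in the levels of the members was not tested.

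**Figure D3:**
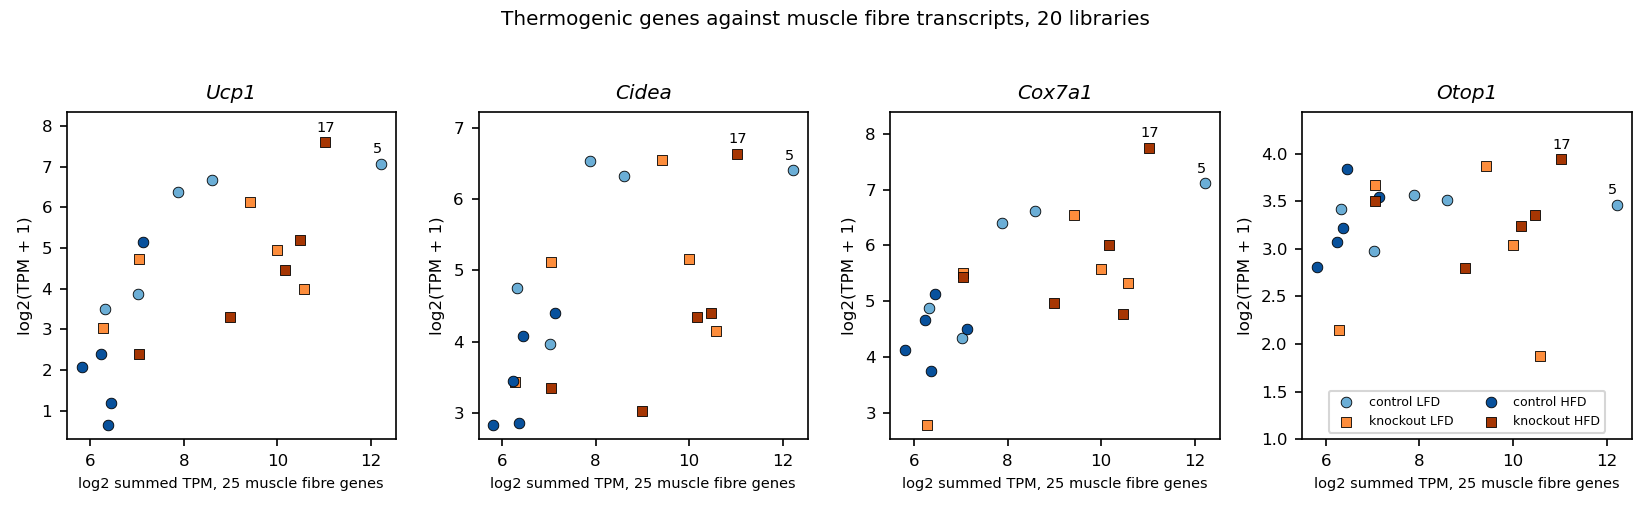
Levels of Ucp1, Cidea, Cox7a1 and Otop1 as log2(TPM + 1) (vertical axes) against the log2 summed TPM of 25 muscle fibre genes (horizontal axes), 1 point per library in the colour of its group. Ucp1 and Cox7a1 rose with the muscle sum (r = 0.707 and 0.693), Otop1 stood at r = 0.061, and the libraries marked 5 and 17 sit at the upper right in the first 3 panels.

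Among themselves the members split into a tight set of 5 and 4 more loosely tied genes. Over 36 pairs, with p-values adjusted over the pairs, Ucp1 and Cidea moved most closely together on ranks (Spearman rho = 0.895, r = 0.894, and r = 0.867 without the 2 libraries farthest in Ucp1). Ucp1 and Elovl3 (rho = 0.868), Cox7a1 and Cox8b (rho = 0.860), Cidea and Cox8b (rho = 0.856) and Cidea and Elovl3 (rho = 0.802) were close behind. Each of these had a permutation p of rho of at most 0.000480 after adjustment, r from 0.848 to 0.896, r from 0.831 to 0.869 without the 2 libraries farthest from the median, and r from 0.814 to 0.890 with both genes centred on their group means. All 10 pairs of Ucp1, Cidea, Elovl3, Cox7a1 and Cox8b had rho of at least 0.711. Otop1 went with Cox8b (rho = 0.743) and Cidea (rho = 0.668) more than with Ucp1 (rho = 0.477).

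Prdm16 stood apart. Its rho was 0.060 with Ucp1, -0.104 with Ppargc1a and -0.033 with Elovl3, and its largest was 0.475 with Otop1 (adjusted permutation p = 0.0685). Dio2 reached 0.534 with Ucp1 (adjusted permutation p = 0.0416), but its r with Ucp1 of 0.588 was 0.329 without the 2 libraries farthest in Ucp1. Ppargc1a reached 0.570 with Cidea (adjusted permutation p = 0.0278). The libraries compared share 4 groups and the 2 diets.

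**Figure D4:**
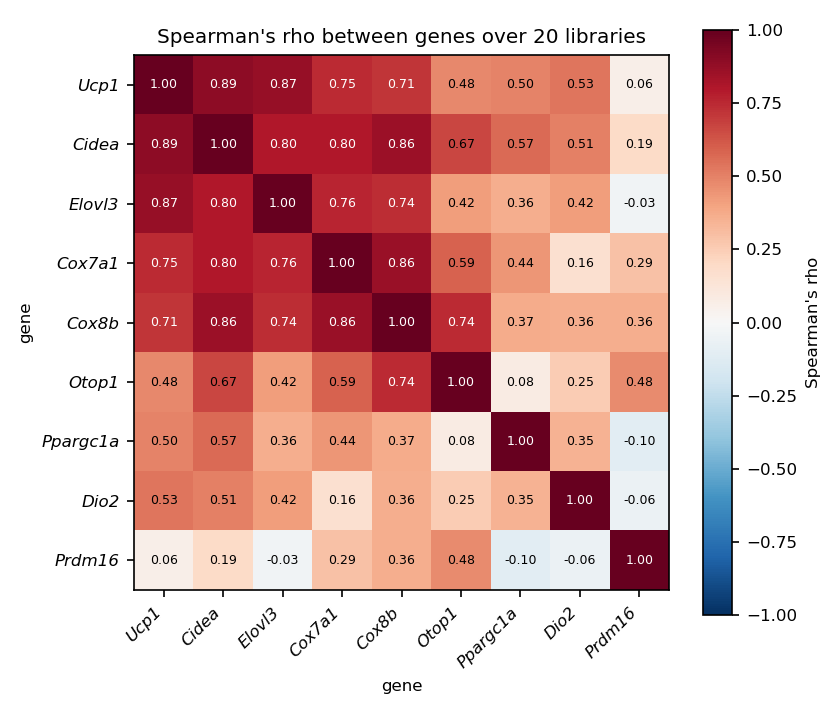
Spearman's rho between each pair of the 9 genes over 20 libraries, both axes listing the genes and colour running from -1 to 1. The 5 genes Ucp1, Cidea, Elovl3, Cox7a1 and Cox8b form a block with rho of at least 0.711, and the Prdm16 row holds values from -0.104 to 0.475.

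Other cell type lists showed no relation to any member that passed correction over 63 relations. The closest was Elovl3 against summed endothelial genes (r = -0.648, adjusted permutation p = 0.131), and Ucp1 against them stood at r = -0.514 (adjusted permutation p = 0.298). Against summed white adipocyte genes r was -0.247 for Ucp1 and 0.410 for Prdm16 (adjusted permutation p = 0.635 and 0.436). Otop1 and macrophage genes stood at r = 0.551 (adjusted permutation p = 0.272).

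The genes whose ranks were most like a member's over the 20 libraries were searched among 15574 genes. For Ucp1 they were Pank1, a pantothenate kinase of coenzyme A synthesis (rho = 0.908), Cidea (0.895) and Elovl3 (0.868). For Cidea they were Aspg (0.917), Tmem79 (0.904) and Ucp1 (0.895). Cox7a1 and Cox8b shared Chchd10, a protein of the mitochondrial intermembrane space, as the nearest gene (rho = 0.904 and 0.910). Next for Cox7a1 came Acadvl, the very long chain acyl-CoA dehydrogenase (0.881), and Pank1 (0.874), and for Cox8b Aspg (0.889) and the fatty acid transporter Slc27a2 (0.889). Elovl3 was nearest to Ucp1 (0.868), Pank1 (0.860) and Cidea (0.802). Members of the tight set were thus among each other's 3 nearest genes for Ucp1, Cidea and Elovl3.

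The remaining members had other neighbours. Otop1 was nearest to Mdh2, mitochondrial malate dehydrogenase (rho = 0.917), Pgm2 (0.911) and Mcat, of mitochondrial fatty acid synthesis (0.911). Ppargc1a was nearest to Apobec3 (0.872), Bex4 (0.831) and Reln (0.820), and Prdm16 to 3110082I17Rik (0.859), Plcd1 (0.847) and Mbd3 (0.835). Dio2 had the weakest neighbours, a gene ID named Tnnc1 (0.791), Gm16735 (0.679) and Sik2 (0.646). Tnnc1 is in the list of slow and cardiac fibre genes, and this gene ID, of 2 with that name, had a mean of 0.559 TPM, near the filter.

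Ucp1, Cox7a1 and Cox8b belong to families with another form in the same tissue, which gave a measure within each library, the share of a family's summed TPM. Ucp1 was compared with Ucp2 and Ucp3, whose group means lay between 32.9 and 42.6 TPM and between 6.23 and 9.41 TPM. The Ucp1 share was 37.9, 24.5, 71.4, 61.9 and 69.4% in control LFD and 2.46, 42.1, 8.47, 4.65 and 1.12% in control HFD, a mean of 53.0% ± 20.8 (SD, n = 5) against 11.8% ± 17.2 (two-sided exact permutation p = 0.0238). In knockouts it was 35.3% ± 15.1 on LFD and 37.70% ± 29.1 on HFD (exact permutation p = 0.889, n = 5). On HFD the genotypes did not differ beyond their spread in this share (exact permutation p = 0.111).

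Cox8b made up 41.2% ± 10.4 of the Cox8 family (with Cox8a and Cox8c) in control LFD and 22.6% ± 6.96 in control HFD (SD, n = 5, two-sided exact permutation p = 0.0159). The 5 LFD controls were at 27.4, 33.0, 48.8, 46.7 and 50.3%, and the HFD controls at 27.3, 30.7, 23.8, 17.4 and 13.8%, and control HFD replicate 12, at 30.7%, was the only one of them above the lowest LFD library. Knockouts were at 33.4% ± 8.37 on LFD and 29.8% ± 10.3 on HFD (exact permutation p = 0.452). For Cox7a1 the sum included Cox7a2 and Cox7a2l. Cox7a2l weighed most in it, with group means of 275.5 to 357.4 TPM against 119.0 to 160.2 TPM for Cox7a2. A share of Cox7a1 with Cox7a2 alone was not computed. With both, Cox7a1 took 13.3% ± 8.21 in control LFD, 9.90% ± 5.18 in knockout LFD, 4.62% ± 1.80 in control HFD and 12.3% ± 10.3 in knockout HFD (SD, n = 5). Its share on HFD was higher in knockouts (exact permutation p = 0.0397), with replicate 17 at 30.3% and the other 4 between 5.24% and 10.75%. These 12 share comparisons, 3 families in 4 pairs of groups, were not corrected for their number.

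**Figure D5:**
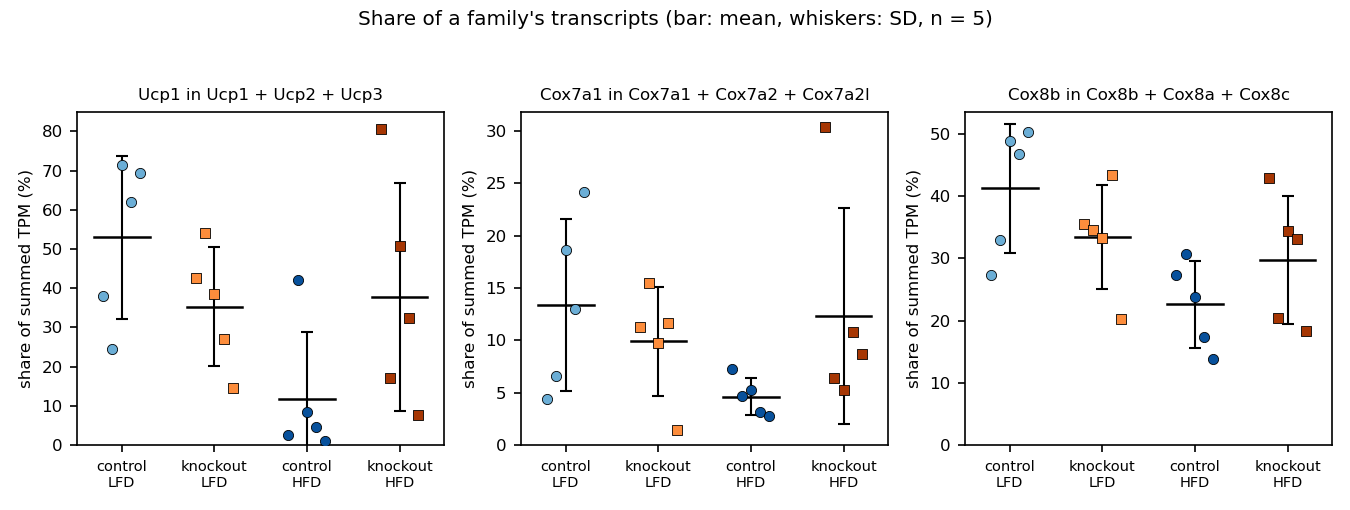
Share of a family's summed TPM (vertical axes, percent) taken by Ucp1, Cox7a1 and Cox8b in the 20 libraries by group (horizontal axes), with bars for the mean and whiskers for the SD. Control HFD libraries lie lowest on average in each panel, at 11.8%, 4.62% and 22.6%.

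At the transcript level, Ucp1, Cidea, Dio2, Cox7a1, Cox8b and Elovl3 each had 1 annotated transcript. Ppargc1a had 4, of which 2 start at mm9 position 51945160 or within 100 bases of it and 2 start 13804 bases further upstream. Transcripts from the upstream start summed to 0, 0, 0.339, 1.67 and 0.299 TPM in control LFD, 3.48, 0, 1.60, 0 and 0 TPM in knockout LFD, 0.701, 0, 0.953, 0 and 0.873 TPM in control HFD and 2.67, 0, 0, 0.564 and 0.739 TPM in knockout HFD. They were listed at 0 in 9 of the 20 libraries, and none of the 4 comparisons of the upstream sum differed beyond its spread (exact permutation p from 0.722 to 0.968). The main start carried the diet difference in controls, 3.62 ± 0.712 TPM on LFD against 2.59 ± 0.511 on HFD (SD, n = 5, exact permutation p = 0.0317). Prdm16 had 16 annotated transcripts, none above a mean of 0.338 TPM, so that its level was a sum of many small estimates.

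Other genes linked to thermogenesis, to fat lineage or to the members' families were described by whole lists. The lists were not sorted by whether a gene promotes or opposes thermogenesis. A list median or a single call is therefore not a measure of thermogenic gain or loss. Over all genes tested, 9.32% were called between diets in controls, and 4.9% were called lower on HFD. In knockouts 9.4% were called between diets, and between genotypes on HFD 0.00657% were called. Counts of called genes in each list are to be read beside these shares. None of the 15 tested regulators of 18 listed was called between genotypes on HFD, with a median log2 fold change of -0.0025. Between diets in controls 3 were lower on HFD: Adrb3, the beta3-adrenergic receptor of adipocytes (log2 fold change -0.90, SE 0.238, adjusted p = 0.0544), Ppara, a nuclear receptor of fat oxidation (log2 fold change -1.28, SE 0.320, adjusted p = 0.0428), and Letmd1 (log2 fold change -0.89, SE 0.277, adjusted p = 0.0906). The 5 regulators of largest fold change between genotypes on HFD were Fgf21 (-1.81, SE 1.196), Ppara (0.43, SE 0.408), Letmd1 (0.43, SE 0.265), Adrb3 (0.37, SE 0.278) and Esrra (0.23, SE 0.407), all log2 fold changes that did not pass the test.

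Among 24 tested effectors of 26 listed, many of which burn or carry fuel, none was called between genotypes on HFD, and the median was 0.13. The list shared S100b with the list of nerve genes. The largest log2 fold changes were those of Ckmt2 (5.72, SE 1.45, adjusted p = 0.453), Cox6a2 (3.53, SE 1.37), Fabp3 (2.71, SE 1.079), Slc27a2 (1.60, SE 1.10) and Acot11 (1.40, SE 0.480). Ckmt2, Cox6a2 and Fabp3 are known from muscle and heart as well. Between diets in controls 3 were lower on HFD, Acot11 (log2 fold change -2.60, SE 0.400, adjusted p = 0.00597), Slc27a2 (log2 fold change -3.24, SE 0.736, adjusted p = 0.0305) and Ckmt2 (log2 fold change -5.73, SE 1.80, adjusted p = 0.0931), and 2 were higher, Cox4i2 (log2 fold change 1.09, SE 0.284, adjusted p = 0.0510) and S100b (log2 fold change 1.03, SE 0.296, adjusted p = 0.0713). Ckmt2 was at most 12.2 TPM in any library, so that at this fold change its control HFD mean lay below the filter. It passed through control LFD alone, its direction was set by the filter, and its call is a description. Beside control HFD, Ckmt2 likewise passed between genotypes through knockouts alone. Slc27a2, at most 4.82 TPM in any library, was near the filter in control HFD.

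Of 14 tested lineage markers of 16 listed, none was called between genotypes on HFD (median 0.01). The largest log2 fold changes were those of Cited1 (1.57, SE 0.680), Lhx8 (-0.93, SE 1.03), Mpzl2 (0.60, SE 0.266), Slc36a2 (-0.41, SE 0.293) and Pdgfra (0.33, SE 0.121), and none passed. Mpzl2 (log2 fold change -1.34, SE 0.213, adjusted p = 0.00604) and Pdgfra, the receptor of adipocyte progenitors (log2 fold change -0.72, SE 0.127, adjusted p = 0.00911), were lower on HFD in controls. Of 14 tested paralogs of 21 listed, none was called between genotypes on HFD (median 0.10), where the largest were Elovl4 (0.90, SE 0.873), Elovl7 (0.46, SE 0.398), Elovl6 (0.38, SE 0.258), Elovl1 (-0.37, SE 0.197) and Cidec (-0.35, SE 0.185).

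Between diets in controls, 3 of the 14 tested paralogs were called lower on HFD, none higher, and 5 had fold changes above 0: the 3 were Ppargc1b (log2 fold change -1.11, SE 0.297, adjusted p = 0.0568), Pprc1 (log2 fold change -0.96, SE 0.169, adjusted p = 0.00913) and Elovl6 (log2 fold change -2.84, SE 0.406, adjusted p = 0.00464). In knockouts these 3 were called lower on HFD as well: Ppargc1b (log2 fold change -1.17, SE 0.307, adjusted p = 0.0463), Pprc1 (log2 fold change -1.01, SE 0.245, adjusted p = 0.0347) and Elovl6 (log2 fold change -2.41, SE 0.322, adjusted p = 0.00252). Elovl6, which elongates newly made saturated fatty acids, went from 232.3 ± 139.2 TPM on LFD to 37.2 ± 12.5 on HFD in controls and from 249.2 ± 143.9 to 49.7 ± 19.5 in knockouts (SD, n = 5). In knockouts Cox4i2 (log2 fold change 1.23, SE 0.273, adjusted p = 0.0252), S100b (log2 fold change 1.53, SE 0.382, adjusted p = 0.0378), Gyk, glycerol kinase (log2 fold change 0.79, SE 0.215, adjusted p = 0.0548), and Hoxc8 (log2 fold change 0.51, SE 0.125, adjusted p = 0.0363) were higher on HFD, and Nrip1 (log2 fold change -0.57, SE 0.145, adjusted p = 0.0421) and Epsti1 (log2 fold change -0.88, SE 0.195, adjusted p = 0.0247) were lower. By list these were 3 of 24 tested effectors, 1 of 14 regulators, and 1 higher and 1 lower of 14 lineage markers, beside 9.4% of all genes.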

How the data were processed

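Ribosome-depleted total RNA of iWAT was sequenced from 20 mice, 5 per group as the labels give them. The authors quantified read pairs with Salmon 0.13.1 on Ensembl transcripts of mm9 (NCBIM37) and deposited an estimated count and a TPM value per transcript. STAR 2.5.3 is also named in the submitters' processing notes. Here 96533 transcripts were summed per gene with GENCODE vM1, which held 97.7% of them, and unmatched transcripts took 0.377% to 0.581% of counts. Rounded gene sums were tested with edgeR 4.0.16 (quasi-likelihood, TMM, R 4.3.3), fitted on the 10 libraries compared or on all 20 for the difference between diets, over genes whose mean reached 0.5 TPM, and an adjusted p under 0.1 counted as a call. Single genes were compared by two-sided exact permutation of log2(TPM + 1) and correlations by 100000 permutations. Alternatives were DESeq2 1.42.0, limma 3.58.1, RLE scaling, no filter, length offsets, a pseudocount of 0.1, leaving out each library and, chosen after seeing the data, edgeR's newer method, scaling to adipocyte genes and 2 single libraries left out of the correlation. The edgeR code was tested on simulated counts.

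The members, lists and tests were chosen with earlier results of these data known. Genes named were the members, their family partners, called genes and the 5 largest changes on HFD of each list, and the 3 nearest genes of each member. Lists of macrophage, lymphocyte, epithelial, skin, endothelial and nerve genes were used as markers of other cells. Promoters came from RefSeq (GRCm38.p6). Each library is taken as a separate mouse. The files do not show whether uniquely mapped pairs alone were quantified, which bears on genes with close copies.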

Additional observations from a re-analysis of the deposited data

Results flagged for a closer look

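Of 40 groups of 5 libraries examined (9 genes and the muscle sum in 4 groups), 6 held a library far from the others by Dixon's test at 95%. The test flags about 1 group in 20 by chance, but 4 of the 6 were the same library in genes that move together, and that library was known to stand apart, so the count is a description. Knockout HFD replicate 17 was set apart in 4 genes of its group: Ucp1 at 193.6 TPM with the next library at 35.6, Cidea at 99.0 TPM with the next at 20.05, Cox7a1 at 214.3 TPM with the next at 63.5, and Elovl3 at 4.46 TPM with the next at 1.13. Its muscle sum was 2079 TPM, the highest of its group by less than the test requires. Control HFD replicate 12 was set apart in Ucp1, at 34.4 TPM with the next library at 4.26. Control LFD replicate 5 was set apart in the muscle sum, at 4761 TPM with the next at 387 TPM, and in no member.

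The genotype difference of Ucp1 on HFD minus that on LFD was 3.24 on log2(TPM + 1). The exact permutation test of genotypes within diets, whose null is no genotype effect on either diet, gave p = 0.0436, uncorrected. With Ucp1 scaled to the adipocyte genes it was 3.03 (exact permutation p = 0.0564), and the edgeR adjusted p over all genes was 0.9999.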

How the results depend on the processing

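Of the members' fold changes under other settings and tools, 770 kept their sign and side of the threshold, 24 changed sign, 6 passed where the edgeR value did not and 10 no longer passed. On HFD, DESeq2 called 1 member between genotypes (Cox7a1) where edgeR called 0. Prdm16 turned to 0.0320 with length offsets and 0.0621 in limma on HFD, and Ppargc1a to -0.0157 in limma for the difference between diets. Leaving out 1 library at a time, values that changed sign ranged, between genotypes on HFD, from -0.21 to 0.85 (Cox8b) and from -0.0936 to 0.26 (Otop1), and between diets in controls from -0.16 to 0.0213 (Prdm16). Between diets in knockouts they ranged from -0.70 to 1.42 (Ucp1), -1.44 to 0.32 (Cidea), -0.0851 to 0.13 (Prdm16), -0.36 to 0.31 (Dio2), -0.14 to 1.04 (Cox7a1), -0.71 to 0.23 (Cox8b) and -1.27 to 0.40 (Elovl3). For Prdm16 the difference between diets ranged from -0.0501 to 0.19. Members called between diets in controls numbered 3 to 6 over these. The HFD minus LFD differences in log2 TPM of knockouts changed sign for Ucp1 with a pseudocount of 0.1 (-0.0020) and, scaled to adipocyte genes, for Ucp1 (-0.45), Dio2 (-0.22) and Otop1 (-0.0075). Correlations with muscle passed for 5 members, for 0 with slow and cardiac fibre genes, 0 without the 2 farthest libraries, and 3 to 4 without replicate 17 or 5. With slow and cardiac genes r was -0.0916 (Prdm16), -0.0478 (Cox8b) and -0.112 (Otop1), without the 2 libraries -0.0951 (Prdm16) and -0.128 (Otop1), and without 1 of them -0.104 to 0.0851 (Prdm16) and -0.0455 to 0.0167 (Otop1). The cause was not tested. Genes called in all numbered 1 in edgeR, 26 without a filter, 5 with length offsets, 3 in limma, 100 in DESeq2 and 34 by the newer method between genotypes on HFD, 1 against 17 (DESeq2) and 2 (limma) on LFD, 1427 against 2205 (DESeq2) between diets in controls, 1476 against 2247 (DESeq2) in knockouts, and 0 against 14 (DESeq2) for the difference. Leaving out 1 library gave 1 to 58 genes between genotypes on HFD (58 without knockout HFD replicate 21, 10 without control HFD replicate 12) and 780 to 1845 between diets in controls. No paired analysis was possible because the groups share no replicate number. With 5 libraries a group the smallest exact p is 0.00794.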
